A study of Mus musculus with 16 samples.

Results

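The genes described here encode the nuclear subunits of respiratory complexes II to V, measured in mouse heart after 1, 2 or 3 days of exposure to aggressor mice. They were chosen by gene name: every non-control spot of the array whose name is Sdha to Sdhd, Cyc1, or begins with Uqcr, Cox4 to Cox8 or Atp5. This gave 49 of the 34844 gene names on the array, carried by 78 probes and 87 spots. By complex they were 4 genes of complex II, 9 of complex III, 17 of complex IV and 15 of complex V. The remaining 4 matched by name without being core subunits: Cox4nb (now called Emc8), Cox7a2l, Atp5s and Atp5sl (now called Dmac2). Of the 49, 47 passed the filter on dim probes. The testis-type isoforms Cox7b2 and Cox8c did not pass: their probes were well above background on 7 and 1 of the 16 arrays.

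Total RNA was taken with TRIzol from single hearts of C57BL/6 mice, in 4 groups of 4 hearts, with 1 Cy3-labelled Agilent array per heart. The stressed groups T1R1, T2R1 and T3R1 had 1, 2 or 3 days of aggressor exposure, each followed by 1 rest day. The mesh boxes of the controls stood in a cage that held no aggressor. The controls carry the label of the 2-day arm with 1 day of rest, so no control was matched to the shorter or the longer exposure. The labels' treatment text speaks of 6 hours a day for 5 or 10 days, which differs from the group names. Age and sex are not given in the sources used here. Each array came from an animal with its own number, so p-values measure the spread between hearts.

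Complex II (succinate dehydrogenase) and other dehydrogenases feed electrons into the ubiquinone pool. Complex III (cytochrome bc1) passes them to cytochrome c, and complex IV (cytochrome c oxidase) passes them on to oxygen. The proton gradient that complexes III and IV help to build drives complex V, the ATP synthase. Cardiac muscle is among the tissues richest in these proteins, and it uses muscle-type isoforms of several complex IV subunits (Cox6a2, Cox7a1 and Cox8b) beside the widely expressed ones (Cox6a1, Cox7a2 and Cox8a). Cox4i2 is an alternative form of the core regulatory subunit Cox4i1, known from lung and for induction by low oxygen.

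The isoform pairs are told apart by their probes, so the first 30 bases of the 60-base probe of each isoform are shown, 5′ to 3′, from the array design.
Cox4i1: aagcgaatgctggacatgaaggccaacccc
Cox4i2: ctgagtcctgtctccactcccttctccaat
Cox6a1: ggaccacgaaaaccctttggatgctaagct
Cox6a2: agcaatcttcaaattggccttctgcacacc
Cox7a1: acaacgtcctgtacagactgaccatgacgc
Cox7a2: ctttggggatcaatatttattgatgtgtat
Cox8a: tattggctctgcttggtggggtcccccttt
Cox8b: ctataaaaagagctccgcagcatgaagttg
The array design places them, in mouse genome build mm9, at chr8:123197924-123197983 (Cox4i1), chr2:152590711-152590770 (Cox4i2), chr5:115795726-115795785 (Cox6a1) and chr7:135349160-135349219 (Cox6a2). The other pairs lie at chr7:30970337-30970948 (Cox7a1), chr9:79603215-79603274 (Cox7a2), chr19:7289652-7289708 (Cox8a) and chr7:148084852-148084911 (Cox8b). The Cox7a1 probe spans 612 bases of the genome with 60 bases of sequence, so it crosses at least 1 exon junction. Exon and untranslated region were not assigned to the other probes, since no mm9 annotation was used here.

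Some members share near-identical sequence with another genomic place, and their signals cannot be assigned to 1 place. Probes of Uqcrh, Uqcr11 and Cox5b that the design maps to different chromosomes overlap with 1 mismatch over 53, 52 and 36 bases. A 30-base window around each mismatch is shown, with the differing base in capitals.
Uqcrh, probe at chr4:115739571-115739630: ctcttctgtgtGactagcagtgacttcatc
Uqcrh, probe at chr2:118834335-118834394: ctcttctgtgtAactagcagtgacttcatc
Uqcr11, probe at chr10:79865745-79865804: tagggctgccttgatGggtgcagcattaaa
Uqcr11, probe at chr1:168361642-168361701: tagggctgccttgatAggtgcagcattaaa
Cox5b, probe at chr1:36750171-36750230: ctctaataaagaTtagccattgcactggct
Cox5b, probe at chr15:100805467-100805526: ctctaataaagaCtagccattgcactggct
Atp5l, Atp5k and Atp5j2 also had probes mapped to more than 1 chromosome. In T3R1 against control the log2 differences of each such pair were alike in sign: -0.28 and -0.38 for Uqcrh, -0.38 and -0.42 for Uqcr11, and -0.32 and -0.16 for Cox5b.

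The array that stood apart bears on every comparison with control. The 75th percentile of spot brightness was 547.5 on control replicate 1 and 256.9 to 272.8 on the other 3 controls, against 283.4 to 406.6 on the 12 exposed hearts. By the scanner's flags no spot of a member was saturated on any array. Control and T3R1 arrays shared 1 slide and scan, and T1R1 and T2R1 arrays another. Where T1R1 or T2R1 is set against control, an effect of the slide cannot be told apart from one of the exposure. The contrasts of T3R1 with control and of T2R1 with T1R1 lie within 1 slide.

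**Figure D1:**
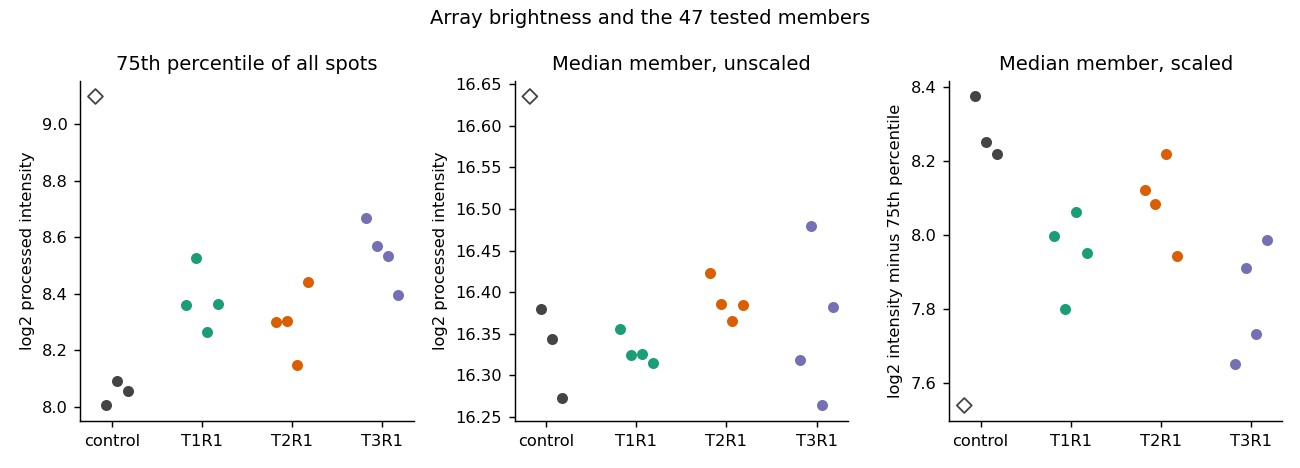
Log2 brightness of the 75th percentile of spots (left), and the median over the 47 tested members before (middle) and after (right) subtraction of that percentile, 1 point per heart; the open diamond is control replicate 1. Control 1 has the highest percentile (9.10) and the lowest scaled member median (7.54), while the unscaled member medians of all hearts lie between 16.26 and 16.64.

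The members were bright and varied little before scaling. Their median log2 intensity lay between 16.26 and 16.48 in the 15 hearts other than control 1, and was 16.64 in control 1. Scaling to the 75th percentile turned this order around, to 7.54 in control 1 against 8.22 to 8.38 in the other controls. After scaling, 45 of the 47 tested members were lower in control 1 than the mean of the other controls, by a median of -0.87 on the log2 scale. Over all 22648 tested features that median was -0.18. Before scaling, 40 of the 47 were higher in control 1, by a median of 0.17, where the median over all features was 0.86. Cox6a1 and Cox4nb were the 2 members that stayed higher after scaling, by 0.29 and 0.13. The scaled members moved together from heart to heart: across the 16 hearts, which share their scaling, 36 of 47 correlated above 0.9 with the median of the others, and 0 of 47 did so unscaled. Each comparison with control is therefore given with control 1 and without it, and on both scales where that matters.

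Across all 4 groups, 2 members differed by limma's moderated F test at an adjusted p under 0.05, against 26.9% of all tested features. They were Cox4i2 (adjusted p = 0.00486) and Cox6a1 (adjusted p = 0.0448), both of complex IV. Leaving out 1 heart in turn among these (controls 2 and 4, T1R1 hearts 2 to 4, T2R1 hearts 1 to 3 or any T3R1 heart) left 1 member called. In bulk hearts, fewer cells of a type and less RNA per cell cannot be told apart. Without control 1 the F test called 43 of 47, against 48.9% of all features; the exceptions were Atp5g3, Cox6b2, Sdhd and Cox4nb.

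Cox4i2 was the member with the smallest p. Its scaled log2 levels were 0.43, 0.94, 0.82 and 0.83 in the controls, 1.04, 0.92, 1.05 and 1.17 in T1R1, 1.09, 1.04, 1.14 and 1.03 in T2R1, and 0.57, 0.67, 0.56 and 0.52 in T3R1. All T2R1 hearts were above all controls, and all T3R1 hearts lay between control 1 and the other controls. Cox4i2 rose in T2R1 by 0.32 ± 0.10 (SE, n = 4 and 4; adjusted p = 0.0367) and was called without control 1 as well, at 0.22 ± 0.07 (adjusted p = 0.0460). The call was lost, with the difference between 0.30 and 0.35 and adjusted p from 0.0523 to 0.0941, without control 3, control 4 or any 1 of the 4 T2R1 hearts. It was also lost with no filter on dim probes (adjusted p = 0.0723) and in a fit of these 2 groups alone (adjusted p = 0.107). With each array scaled to its median the sign turned, to -0.06 (adjusted p = 0.739), and the median of all features moved to -0.37. In T1R1 it differed by 0.29 ± 0.10 (adjusted p = 0.0826), with overlapping groups. In T3R1 it differed by -0.17 ± 0.10 (adjusted p = 0.316), and without control 1 it fell, by 0.28 ± 0.07 (adjusted p = 0.0115). Unscaled, the same T3R1 hearts read 9.24, 9.24, 9.09 and 8.91 against 8.94, 8.91 and 8.88 in controls 2 to 4, so the sign of the T3R1 difference turned to 0.21 and was not called. On that scale without control 1, Cox4i2 rose in T2R1 by 0.46 (adjusted p = 0.00305) and also in T1R1, by 0.51 (adjusted p = 0.00217), where the scaled difference of 0.18 was not called (adjusted p = 0.0942). With control 1 and no scaling no member was called. On the authors' deposited values Cox4i2 was higher in both, at 0.40 (adjusted p = 0.0133) and 0.44 (adjusted p = 0.00433).

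Cox4i2 is known from smooth muscle and pericytes as well as lung, so markers of such mural cells were set beside it, a list chosen after the data were seen. All 10 mural markers were tested. Their summed signal relative to the 75th percentile was 114.3 to 132.5 in controls, 85.1 to 101 in T1R1, 103.7 to 118 in T2R1 and 130.8 to 145.7 in T3R1. The sum was lowest in T1R1 and highest in T3R1. By the median log2 difference of the 10 from control, T3R1 was instead the lowest (-0.13), with -0.05 in T1R1 and -0.09 in T2R1. Scaled Cox4i2 was lower in T3R1 than in T1R1 and T2R1. In T1R1 1 of the 10 fell (Acta2, -0.92) and in T3R1 1 rose (Cspg4, 0.50). The shares of all features called, which differ between comparisons, are given with the members below. In T2R1, 1 of the 10 rose, Higd1b (0.48, adjusted p = 0.00597), a pericyte-enriched mitochondrial gene, and 1 fell, Acta2 (-0.48, adjusted p = 0.0324). Their part in the Cox4i2 result was not tested.

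**Figure D2:**
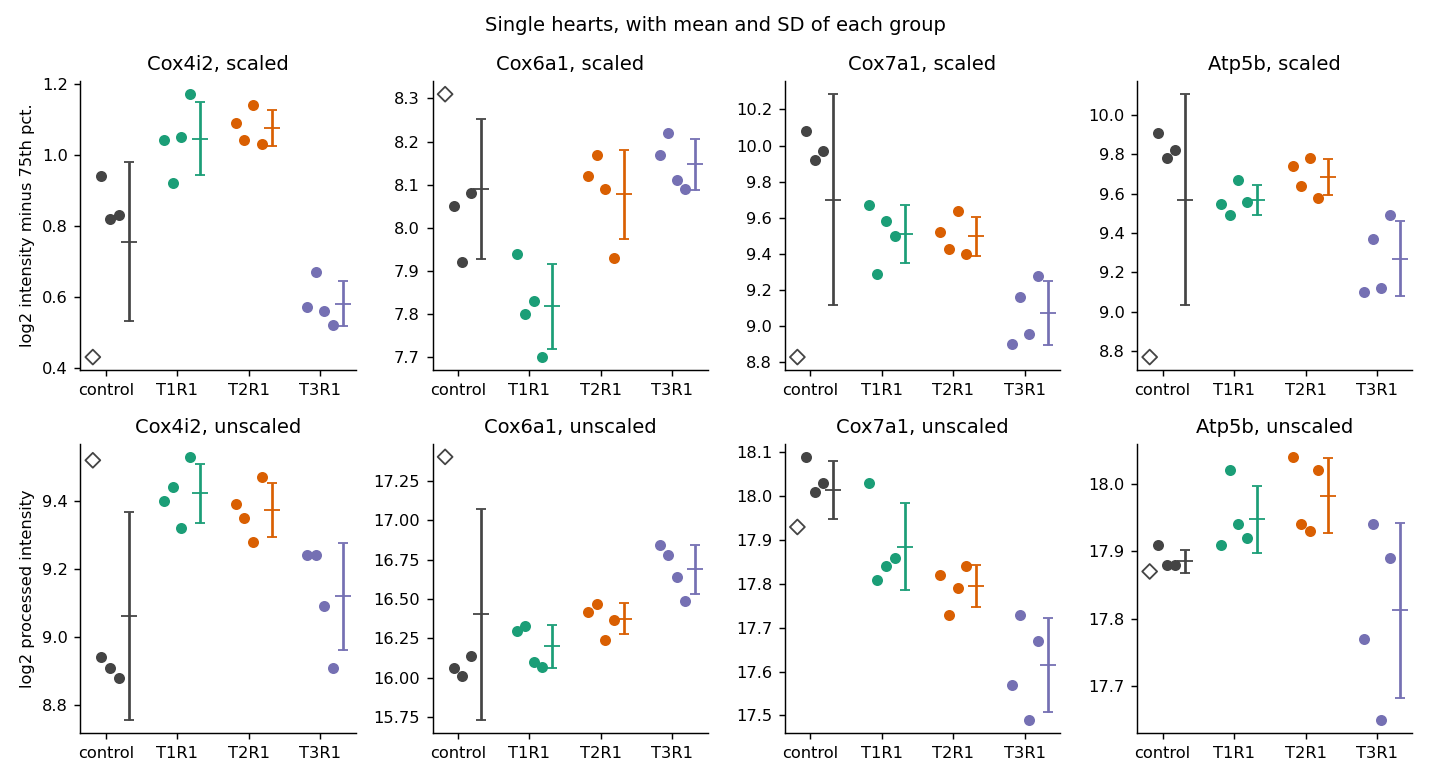
Scaled (top) and unscaled (bottom) log2 intensity of Cox4i2, Cox6a1, Cox7a1 and Atp5b in each heart, with the mean and SD of each group; the open diamond is control replicate 1. Scaled Cox4i2 is higher in all T2R1 hearts (1.03 to 1.14) than in any control (0.43 to 0.94), and unscaled Cox7a1 is lower in all T3R1 hearts (17.49 to 17.73) than in any control (17.93 to 18.09).

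In T1R1 against control, 0 of 47 members passed the threshold, against 9.85% of all tested features (7.75% higher and 2.1% lower); 5 members had an unadjusted p under 0.05. In 1 member, Cox4nb (-0.21, adjusted p = 0.244), every T1R1 heart was below the 4 controls, against 4.06% of all features. The members' median log2 difference was -0.11, and over all features -0.01. Complex II, III, IV and V had medians of -0.15, -0.12, -0.10 and -0.09. When the median of each array took the place of its 75th percentile in the scaling, 38 of 47 were called in T1R1, against 47.2% of all features (44.4% lower), and the median of all features moved to -0.44. The members with the smallest p were Cox8a (-0.31 ± 0.10, adjusted p = 0.0677), Cox6a1 (-0.27 ± 0.09, adjusted p = 0.0700) and Cox7a2l (-0.45 ± 0.15, adjusted p = 0.0739), a supercomplex assembly protein. Without control 1, 23 of 47 fell and 0 rose, against 17.9% of all features called, 8.2% higher and 9.67% lower. In 39 members every T1R1 heart was below each of the 3 controls, against 17.8% of all features (30.9% in either direction). The members called were 1 of 4 in complex II, 3 of 9 in complex III, 7 of 15 in complex IV, 9 of 15 in complex V and 3 of the 4 others. Uqcr11, a small subunit of complex III, fell by 0.48 ± 0.10 (adjusted p = 0.00866), and Cox8b by 0.46 ± 0.10 (adjusted p = 0.0110). Without both control 1 and scaling, Cox4i2 was the single member called, and higher, against 30.7% of all features called and 30.1% called higher.

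In T2R1 against control, Cox4i2 was the 1 member of 47 called, against 18.4% of all tested features (14.8% higher and 3.59% lower). It was also the 1 member whose T2R1 hearts were all above the controls, as in 18.1% of all features, and 0 were wholly below (6.34%; 24.5% either way). The members' median was -0.03, with 29 below 0 and 18 above, and the median over all features was 0.02. Complex II, III, IV and V had medians of -0.02, -0.05, 0.02 and -0.02. Without control 1, 12 fell and 1 rose, against 24.4% of all features called and 9.39% called lower. In 29 members every T2R1 heart was below the 3 controls, against 20.8% of all features. Cox8b, the muscle-type form of subunit VIII, fell by 0.44 ± 0.10 (adjusted p = 0.00821), and Cox7a1 by 0.49 ± 0.11 (adjusted p = 0.00880). Sdhc, a membrane anchor of complex II, fell by 0.43 ± 0.12 (adjusted p = 0.0219). The median of the 47 was then -0.22. With control 1 left out and no scaling, 3 were called: Cox4i2 and Cox6a1 higher (0.46 and 0.31) and Cox7a1 lower (-0.25, adjusted p = 0.0431), against 28.4% of all features, 27.3% higher and 1.15% lower.

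In T3R1 against control, the comparison within a slide, 0 of 47 members passed the threshold, against 0.693% of all tested features (0.503% higher and 0.19% lower); 15 members had an unadjusted p under 0.05. The members' median was -0.32, and over all features -0.08, with 44 of 47 below 0. In 0 members were the T3R1 hearts wholly above or below the 4 controls, against 3.18% and 4.39% of all features (7.57% together). The medians by complex were -0.35 (II), -0.32 (III), -0.33 (IV) and -0.34 (V). The lowest were Cox7a1 at -0.63 ± 0.21 (adjusted p = 0.120) and Atp5c1, the gamma subunit of the rotor of complex V, at -0.58 ± 0.19 (adjusted p = 0.110). In Cox7a1 control 1 lay below all T3R1 hearts and the other controls above them; in Atp5c1 it lay among the T3R1 hearts.

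Without control 1, 39 of 47 members fell in T3R1 and 0 rose, against 29.4% of all features called, 10.2% higher and 19.2% lower. The count was 3 of 4 in complex II, 9 of 9 in complex III, 12 of 15 in complex IV, 14 of 15 in complex V and 1 of the 4 others. The members' median was -0.53 and that of all features -0.13. In 42 of 47 members every T3R1 heart was below each of the 3 controls, against 26.2% of all features, and in 1, Cox6a1, every T3R1 heart was above them (14.4%; 40.6% either way).

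**Figure D3:**
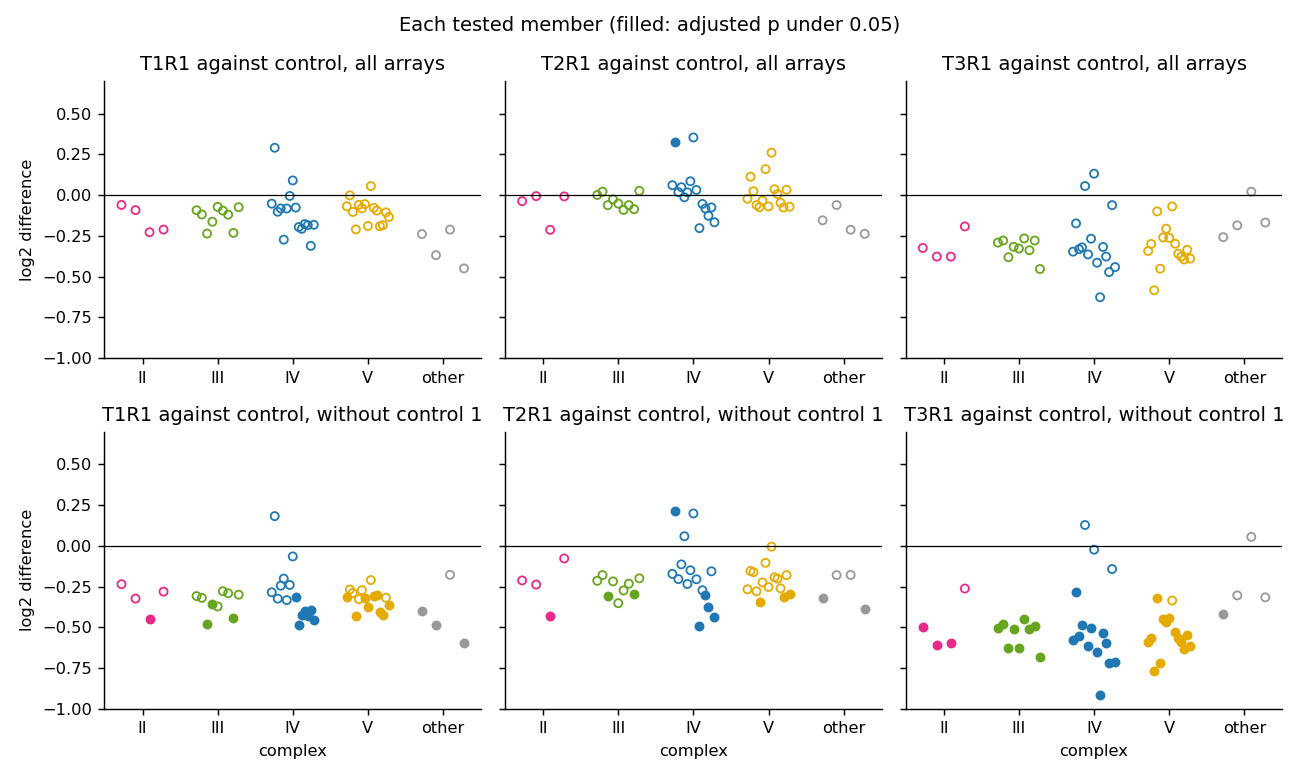
Log2 difference from control of each tested member by complex, in T1R1, T2R1 and T3R1, with all arrays (top) and without control replicate 1 (bottom); filled points have an adjusted p under 0.05. With all arrays 1 point is filled (Cox4i2 in T2R1); without control 1 there are 23, 13 and 39 filled points.

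Complex II was represented by Sdha, the flavoprotein that oxidises succinate, and Sdhb, its iron-sulfur partner. Sdha read 6.35, 7.11, 7.06 and 6.98 in controls and 6.45, 6.73, 6.38 and 6.64 in T3R1 (scaled log2). Control 1 lay below all T3R1 hearts and the other controls above them. The Sdha difference was -0.32 ± 0.15 (adjusted p = 0.212), and -0.50 ± 0.10 without control 1 (adjusted p = 0.00298). Sdhb differed by -0.38 ± 0.19 (adjusted p = 0.265), and by -0.61 ± 0.13 without control 1 (adjusted p = 0.00493). Sdhd, the other membrane anchor, did not pass either way, at -0.19 and -0.26.

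In complex III, the cytochrome c1 gene Cyc1 read 7.50, 8.38, 8.37 and 8.36 in controls and 7.69, 7.95, 7.71 and 8.09 in T3R1. Its difference was -0.29 ± 0.17 (adjusted p = 0.333), and -0.51 ± 0.11 without control 1 (adjusted p = 0.00526). Uqcrc1, a core subunit, differed by -0.33 ± 0.23 (adjusted p = 0.405), and Uqcrfs1, the Rieske iron-sulfur protein, by -0.34 ± 0.15 (adjusted p = 0.192). Without control 1 these were -0.63 ± 0.13 (adjusted p = 0.00377) and -0.51 ± 0.10 (adjusted p = 0.00275). The core subunit gene Uqcrc2 was spotted 10 times on each array, and its spots had an SD of 0.03 to 0.09 on the log2 scale within an array. Between hearts of a group its scaled SD was 0.22, and 0.12 without control 1. Its T3R1 difference was -0.27, with an SE of 0.15.

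In complex IV, Cox4i1 read 8.44, 9.46, 9.31 and 9.33 in controls and 8.62, 8.86, 8.67 and 9.0 in T3R1. It differed by -0.35 ± 0.18 (adjusted p = 0.265), and fell by 0.58 ± 0.10 without control 1 (adjusted p = 0.00138). Cox5a, a subunit on the matrix side, differed by -0.33 ± 0.18 (adjusted p = 0.288) and by -0.55 ± 0.12 without control 1 (adjusted p = 0.00387). Cox7a1 read 8.83, 10.08, 9.92 and 9.97 in controls, 9.67, 9.29, 9.58 and 9.50 in T1R1, 9.52, 9.43, 9.64 and 9.40 in T2R1, and 8.90, 9.16, 8.96 and 9.28 in T3R1. Each exposed heart was below controls 2 to 4 and above control 1. Its fall in T3R1 without control 1, 0.92 ± 0.11 (adjusted p = 0.000182), was the largest of the 47. Cox8b fell there by 0.71 ± 0.10 (adjusted p = 0.000370).

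Cox6a1 did not follow the other complex IV members. It read 8.31, 8.05, 7.92 and 8.08 in controls, 7.94, 7.80, 7.83 and 7.70 in T1R1, 8.12, 8.17, 8.09 and 7.93 in T2R1, and 8.17, 8.22, 8.11 and 8.09 in T3R1. T3R1 lay above controls 2 to 4 and below control 1, and the difference from control was 0.06 ± 0.09 (adjusted p = 0.746). T3R1 was higher than T1R1 by 0.33 (adjusted p = 0.0177), with no overlap, but that comparison crosses slides. Cox8a, the other widely expressed isoform, differed by -0.06 ± 0.10 (adjusted p = 0.754), and by -0.14 ± 0.09 without control 1 (adjusted p = 0.260). Cox7a2 did pass without control 1, falling by 0.54 ± 0.11 (adjusted p = 0.00321).

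In complex V, the catalytic beta subunit gene Atp5b read 8.77, 9.91, 9.78 and 9.82 in controls and 9.10, 9.37, 9.12 and 9.49 in T3R1. It differed by -0.30 ± 0.20 (adjusted p = 0.375), and fell by 0.57 ± 0.10 without control 1 (adjusted p = 0.00147). Atp5c1 read 5.97, 6.90, 6.59 and 6.64 in controls and 5.66, 6.21, 5.64 and 6.25 in T3R1, where the values split into a lower and a higher pair. Its 2 probes gave -0.58 and -0.29, the widest disagreement among the 20 members with several probes; the median range was 0.07. The 3 genes for subunit c of the rotor ring encode the same mature protein. Without control 1 Atp5g1 fell by 0.47 ± 0.10 (adjusted p = 0.00420) and Atp5g2 by 0.45 ± 0.09 (adjusted p = 0.00315), whereas Atp5g3 differed by -0.34 ± 0.16 (adjusted p = 0.130). Atp5e, the epsilon subunit of the central stalk, fell by 0.72 ± 0.12 (adjusted p = 0.000992).

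These T3R1 values rest on the scaling. Without control 1 and with no scaling, the members' median was -0.04 while all features had a median of 0.36. With the 75th percentile subtracted the medians were -0.53 and -0.13. The gap between members and all features was -0.40 on both scales, since the scaling shifts every feature of an array alike. In T1R1 and T2R1 that gap was -0.31 and -0.23. Among 470 bright features (brightness cut at 47349), the scaled medians without control 1 were -0.20 in T1R1, -0.08 in T2R1 and -0.17 in T3R1. Of these features 20.2%, 8.94% and 39.8% were called. Quantile normalization, which does not shift features alike, gave smaller gaps without control 1, of -0.08 in T1R1, -0.11 in T2R1 and -0.18 in T3R1. Thus the unscaled brightness of most members was about level between groups. The rest of the array was brighter in each exposed group than in controls 2 to 4. Unscaled and without control 1, the median difference of all features from control was 0.315 in T1R1, 0.263 in T2R1 and 0.363 in T3R1. With no scaling 4 members were called higher and 4 lower in T3R1, against 45.8% of all features called, 44.4% higher and 1.32% lower. Those higher were Cox6a1 (0.62, adjusted p = 0.000708), Cox4nb (0.55), Cox6b2 (0.47) and Cox8a (0.35), and those lower were Cox7a1 (-0.43, adjusted p = 0.00167), Atp5e (-0.23), Cox7c (-0.23) and Cox8b (-0.22). With quantile normalization, again without control 1, 26 fell and 1 rose, against 25.5% of all features. The riser was Cox6a1 (0.36, adjusted p = 0.00538), and Cox7a1 was lower by all these scalings (-0.60 with quantiles, adjusted p = 0.00123). On the authors' deposited values, which include control 1, Cox7a1 was the 1 member called in T3R1 (-0.40, adjusted p = 0.0350), against 1.6% of all features.

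**Figure D4:**
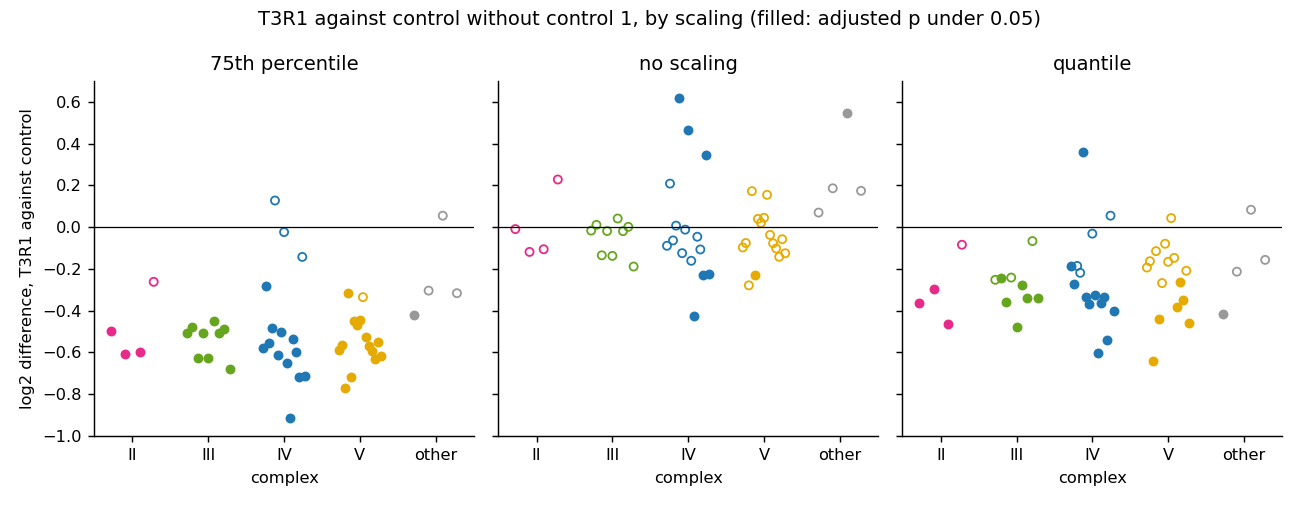
Log2 difference of each tested member in T3R1 against control without control replicate 1, after subtracting the 75th percentile (left), with no scaling (middle) and after quantile normalization (right); filled points have an adjusted p under 0.05. The median of the members is -0.53, -0.04 and -0.27, and Cox7a1 is below 0 in each (-0.92, -0.43 and -0.60).

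Between the exposures, T2R1 against T1R1 gave 0 of 47 members by limma, as it gave 0% of all 22648 features; 3 members and 1775 features had an unadjusted p under 0.05. In 1 member, Cox6b2, the testis-type form of Cox6b1, every T2R1 heart was above every T1R1 heart (0.26, adjusted p = 0.715), against 5.09% of all features, and 0 were wholly below (1.9%; 6.99% either way). The same shares without control 1, which can alter only the features tested, were 5.08% and 1.9%. The members' median was 0.11, with 44 of 47 above 0, and over all features 0.05. With no scaling the members' median was 0.03 and with quantile normalization -0.01, so the direction of the median depends on the scaling. Across slides, T3R1 against T1R1 called Cox6a1 higher and Cox4i2 lower, against 22.9% of all features. T3R1 against T2R1 called Cox4i2 (-0.50, adjusted p = 0.00248) and Atp5c1 (-0.61, adjusted p = 0.0312) lower, against 27% of all features. Without control 1, which enters these contrasts only through the spread and the features tested, 2 members were higher and 14 lower in T3R1 than in T1R1, against 31.4% of all features, and 30 were lower than in T2R1, against 36.7%.

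Ratios of a muscle-type to a widely expressed isoform within an array do not depend on a scaling that shifts all its features alike. Under quantile normalization, which does not, they can change. A ratio of 2 probes says nothing of which isoform is more abundant, and only its difference between hearts is used. The log2 ratio of Cox7a1 over Cox7a2 was 1.89, 2.13, 2.22 and 2.17 in controls, 2.17, 2.08, 2.05 and 2.15 in T1R1, 1.91, 1.92, 1.99 and 1.99 in T2R1, and 1.80, 1.84, 1.71 and 1.81 in T3R1. All T3R1 hearts were below all controls, control 1 included, by 0.31 on average, and all T2R1 hearts were below all T1R1 hearts, by 0.16. Both gave an exact two-sided permutation p of 0.0286, the smallest that 4 against 4 allows, and 0.152 after adjustment over the 16 ratio tests, so neither passed.

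The log2 ratio of Cox8b over Cox8a was 0.59, 1.38, 1.46 and 1.23 in controls, 1.28, 1.20, 1.33 and 1.37 in T1R1, 1.11, 0.96, 1.09 and 1.13 in T2R1, and 0.65, 0.82, 0.85 and 0.82 in T3R1. T2R1 lay wholly below T1R1 (exact permutation p = 0.0286, adjusted p = 0.152), and the T3R1 hearts wholly below both. Control 1 was lower than every exposed heart. For Cox6a2 over Cox6a1 control 1 read 0.88 against 2.13 to 2.23 in the other controls, and T3R1 read 1.11, 1.51, 1.37 and 1.74. The differences of T3R1 from all controls were -0.38 for Cox8b over Cox8a (exact permutation p = 0.143) and -0.42 for Cox6a2 over Cox6a1 (exact permutation p = 0.286). Without control 1 they were -0.57 and -0.74, each with an exact permutation p of 0.0286, the smallest that 4 against 3 allows (adjusted p = 0.0508). For Cox4i2 over Cox4i1, controls 2 to 4 read -8.525 to -8.494, and control 1 at -8.009 lay among the exposed hearts, which read -8.485 to -7.905. With all arrays the ratio differed from control by 0.34 in T1R1, 0.26 in T2R1 and 0.17 in T3R1, with overlapping groups. Each exposed group lay wholly above controls 2 to 4, by 0.47, 0.39 and 0.30. The exact permutation p was then 0.0286, 0.0286 and 0.0571 (adjusted p = 0.0508, 0.0508 and 0.0831), so none passed.

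**Figure D5:**
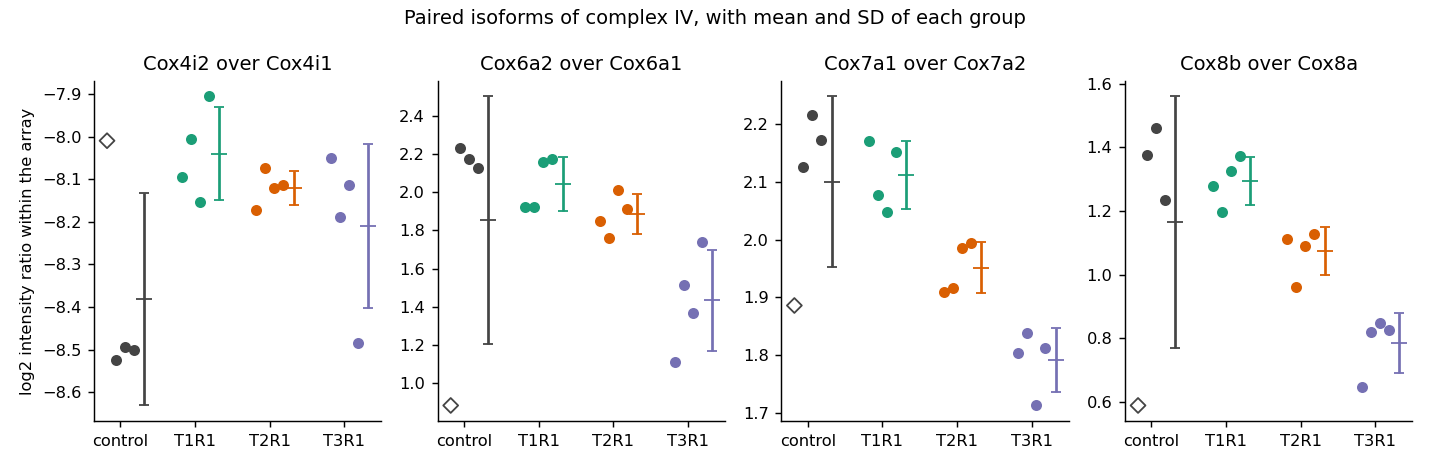
Log2 ratio of paired complex IV isoforms within each array, 1 point per heart, with the mean and SD of each group; the open diamond is control replicate 1. Cox7a1 over Cox7a2 is 1.71 to 1.84 in T3R1 and 1.89 to 2.22 in controls, and control 1 lies near or below the T3R1 hearts for Cox8b over Cox8a (0.59) and Cox6a2 over Cox6a1 (0.88).

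Markers of other cells differed between hearts beside these isoforms. Cox8b and Cox7a1 are also expressed in brown fat, and 13 of 14 adipocyte markers were tested, Elovl3 being the exception. Their summed signal was 214.3 to 445.7 in controls, 138.1 to 318.9 in T1R1, 150.2 to 252.6 in T2R1 and 180.8 to 300.2 in T3R1; control 1 was at 444.4. Ucp1, the brown fat uncoupler, ranged over scaled log2 values from -6.11 to 2.63 in T1R1 and was 5.51 in control 1 and 5.07 in T3R1 replicate 1. In T1R1, 4 of the 13 fell (Ucp1, Adipoq, Adrb3 and Cidea), and in T2R1 and T3R1 0 did. The median log2 difference of the 13 from control was -2.271 in T1R1, -1.458 in T2R1 and -0.333 in T3R1. With control 1 left out these medians were -1.825, -0.909 and 0.058. Adrb3 alone then fell in T1R1 (-3.26, adjusted p = 0.0414). In T2R1 1 marker rose (Lep, 0.93), against the direction of that median, and in T3R1 1 rose (Dio2, 0.83). Of the 10 skeletal muscle markers 5 passed the filter (Tnnt3, Tnni2, Pvalb, Atp2a1 and Ckm), and Myh1, Myh2, Myh4, Mylpf and Actn3 did not. All 10 cardiomyocyte markers were tested; their summed signal was 4782 in control 1, 8440 to 9898 in the other controls and 6122 to 8260 in T3R1. Without control 1, 6 of the 10 fell in T3R1, among them Tnni3 (-0.70) and Myl2 (-0.46), beside the falls of the members. The median of the 10 was then -0.475, near the -0.53 of the respiratory members, where all features had -0.13. The part of these cell types in the results was not tested. Of the liver, nerve and erythroid markers 7, 9 and 7 were tested, and with all arrays 0 of each were called in T3R1. Without control 1, beside the 39 members that fell there, 2 nerve, 1 erythroid, 2 skeletal muscle and 4 mural markers fell, and 1 skeletal muscle and 2 mural markers rose. With all arrays, in T1R1 and T2R1 4 and 3 nerve markers fell, 1 liver marker rose in each, and 1 erythroid marker rose in T2R1. Of the 5 skeletal muscle and 10 cardiomyocyte markers 0 were called with all arrays. These marker counts stand beside the shares of all features called, given above with each comparison, which differ between comparisons.

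Genes that act with the complexes were set beside them, with all arrays and without control 1. Of 44 assembly factors and partners 28 were on the array by these names and tested. In T1R1 2 of them fell, Cox15 (-0.46, adjusted p = 0.00440), which makes haem A, and Atpaf2 (-0.28, adjusted p = 0.0375), which assembles the F1 sector. In T2R1 1 fell, Cox15 again (-0.27, adjusted p = 0.0415), and in T3R1 0 were called. Without control 1, 12 of 28 fell in T1R1, 5 in T2R1 and 8 in T3R1, and 0 rose, against 9.67%, 9.39% and 19.2% of all features called lower. Those of T3R1 included Lrpprc (-0.47, adjusted p = 0.00225), which stabilises mitochondrial messengers, and Ndufa4 (-0.60, adjusted p = 0.00235), now counted as a complex IV subunit. Their median was -0.23, between that of the members and that of all features. All 36 listed complex I subunits were tested: 1 fell in T1R1, and 0 were called in T2R1 and T3R1. Without control 1, 27 of 36 complex I subunits fell in T1R1, 7 in T2R1 and 35 in T3R1, against the same shares of all features. Their T3R1 median was -0.58, and 1 rose, Ndufab1 (0.32, adjusted p = 0.0135), the mitochondrial acyl carrier protein.

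Promoter sequences were read for 37 of the 49 members from a RefSeq-derived table of build GRCm38.p6, over the 250 bases before the start. Motifs were searched on both strands: the NRF1 and MEF2 motifs, ETS as CCGGAAGT, ERR as TCAAGGTCA, the E-box as CACGTG and RBPJ as TGGGAA. Matches of different motifs did not overlap in these promoters (0 overlaps). The NRF1 letters were found in 7 of 37 members (18.9%) and 4.23% of all 27025 genes, in 4 of 14 genes of complex V and 1 of 12 of complex IV. The ETS letters were found in 3 members (8.11%, 3.23% of all genes) and the E-box in 5 (13.5%, 6.86%), 4 of them in complex V. The ERR letters stood in 1 member (2.70%, 0.422%), the MEF2 letters in 1 (2.70%, 3.7%) and the RBPJ letters in 10 (27.0%, 24.1%). A match is a description of letters, and the members differ from other genes in more than these motifs.

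Promoters of the isoforms of complex IV are shown with every match in capitals, for the 5 genes of these pairs that the table holds; Cox4i1, Cox4i2 and Cox6a2 were not matched in it. Cox6a1 holds the NRF1 letters in 2 places, and Cox7a1, Cox7a2, Cox8b and Cox8a hold none of the 6 motifs in this window.
Cox6a1, chr5:115348959-115349208 (- strand): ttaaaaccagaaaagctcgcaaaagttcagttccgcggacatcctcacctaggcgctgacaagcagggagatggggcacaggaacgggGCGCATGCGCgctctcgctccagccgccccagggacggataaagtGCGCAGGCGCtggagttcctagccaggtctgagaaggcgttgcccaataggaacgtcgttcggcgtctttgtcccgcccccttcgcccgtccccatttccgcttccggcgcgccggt
Cox7a1, chr7:30183921-30184170 (+ strand): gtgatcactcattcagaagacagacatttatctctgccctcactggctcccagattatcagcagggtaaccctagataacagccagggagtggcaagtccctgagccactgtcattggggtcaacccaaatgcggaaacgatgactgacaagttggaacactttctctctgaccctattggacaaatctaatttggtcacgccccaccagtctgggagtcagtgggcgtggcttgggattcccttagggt
Cox7a2, chr9:79759854-79760103 (- strand): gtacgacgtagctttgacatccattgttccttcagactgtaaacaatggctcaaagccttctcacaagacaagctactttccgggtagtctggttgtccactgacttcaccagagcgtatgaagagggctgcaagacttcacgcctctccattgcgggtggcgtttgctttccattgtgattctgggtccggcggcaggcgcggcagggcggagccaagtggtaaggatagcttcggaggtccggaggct
Cox8b, chr7:140900447-140900696 (- strand): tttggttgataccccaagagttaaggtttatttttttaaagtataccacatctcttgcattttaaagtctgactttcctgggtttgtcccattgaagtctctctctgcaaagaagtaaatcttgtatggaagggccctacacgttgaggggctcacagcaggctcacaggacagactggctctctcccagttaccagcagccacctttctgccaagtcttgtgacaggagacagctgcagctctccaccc
Cox8a, chr19:7217617-7217866 (- strand): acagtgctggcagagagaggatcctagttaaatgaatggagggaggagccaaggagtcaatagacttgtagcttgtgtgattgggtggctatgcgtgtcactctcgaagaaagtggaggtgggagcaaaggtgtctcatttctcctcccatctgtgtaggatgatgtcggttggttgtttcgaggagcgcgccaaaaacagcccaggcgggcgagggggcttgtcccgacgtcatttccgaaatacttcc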

How the data were processed

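Gene expression was measured in 16 hearts, each on a one-colour Agilent array. Feature Extraction 10.7.3.1 made the processed spot intensity, per the file headers, with no normalization between arrays. The authors deposited a table of log2 values as well, in which every array has the same distribution (median 6.10); no source used here says how it was made. The outlier, background and saturation flags are those of the scanner software, per the file headers.

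Here, outlier spots were left out, log2 values were taken, the 75th percentile of each array was subtracted, and replicate spots were averaged per probe. Probes were retained where 1 group or more had them well above background in all 4 hearts, and each gene name was represented by its brightest probe (22648 features, 102 missing values, 1 of them a member: Cox7a2l in T2R1 replicate 3, which its fit left out). limma 3.58.1 in R 4.3.3 was fitted over the 4 groups with moderated variances (12 residual and 2.26 prior degrees of freedom). Two-sided p-values were adjusted over all features (Benjamini-Hochberg) and called under 0.05. The fit was tested on simulated data whose features varied independently of each other. The shared movement of the scaled members from heart to heart was not simulated. Isoform ratios were tested by exact permutation of hearts.

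The members, lists and tests were chosen with earlier results of these data known. Named genes were up to 6 called members per comparison, 8 core subunits (Sdha, Sdhb, Cyc1, Uqcrc1, Uqcrfs1, Cox4i1, Cox5a and Atp5b) and the isoform sets; other members named were chosen after their values were seen. The number of arrays limits the precision. Alternatives covered the background correction, scaling, filter, outlier spots, probe choice, samples in the fit, variance model, array weights, block, threshold and leaving out each array. Spots of a gene and its near-identical copies cannot be told apart.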

Additional observations from a re-analysis of the deposited data

Results flagged for a closer look

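Of 88 groups of 4 hearts checked for a heart far from the others, 10 had one; chance alone would give about 1 in 20. In 9 of the 10 it was control replicate 1, on the scaled log2 scale: Sdha at 6.35, Cyc1 at 7.50, Uqcrc1 at 6.29, Cox4i1 at 8.44, Atp5b at 8.77, Cox7a1 at 8.83, Cox8b at 8.10, Atp5g1 at 8.68 and the median of complex III at 7.50, each below the other controls. The tenth was the median of complex V in T2R1 replicate 3, at 8.75, above the other T2R1 hearts. These members share the scaling of their array, so the 9 are not independent.

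In 4 cases the effects of exposures differed from each other by the test of the difference, over the same controls and with all arrays. Cox4i2 was lower in T3R1 than in T1R1 (-0.46) and in T2R1 (-0.50), Cox6a1 was higher in T3R1 than in T1R1 (0.33), and Atp5c1 was lower in T3R1 than in T2R1 (-0.61). Each of the 4 compares arrays of slide 1 with arrays of slide 2, and the slide cannot be told apart from the exposure. With all arrays the T3R1 contrasts with T1R1 and T2R1 called 22.9% and 27% of all features. Without control replicate 1 the same tests called 2 members higher and 14 lower in T3R1 than in T1R1, against 31.4% of all features. They called 30 lower in T3R1 than in T2R1, against 36.7% of all features.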

How the results depend on the processing

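Leaving out 1 heart at a time gave 0 to 23 called members in T1R1, 0 to 13 in T2R1, 0 to 39 in T3R1, 0 to 0 in T2R1 against T1R1 and 1 to 43 by the F test, and the highest counts were those without control replicate 1. In T1R1 1 member was called without control 2, without control 3 or without T1R1 replicate 1. Array weights gave 17, 13, 39 and, by the F test, 43, against 19.4%, 38.8%, 34.1% and 59.3% of all features. Scaling to the median gave 38 in T1R1, 13 in T2R1 and 17 by the F test (47.2%, 40.2% and 56% of all features), while moving the median of all features by -0.44 in T1R1 and -0.37 in T2R1; under it Cox4i2 in T2R1 turned to -0.0613 (adjusted p = 0.739). Quantile normalization gave 2 in T2R1 (13.4%), and 3, 5, 27 and 24 (F test) without control 1 (8.56%, 16.8%, 25.5% and 41.4%). No scaling gave 0 in T2R1 and 0 by the F test (11.4% each), and 1, 3, 8 and 8 (F test) without control 1 (30.7%, 28.4%, 45.8% and 58.7%). The authors' deposited values gave 1 in T1R1, 1 in T3R1 and 6 by the F test (8.1%, 1.6% and 28.3%). Normexp (4.87%) and single probes gave 1 each in T1R1, and single probes 1 by the F test. The single T2R1 call (Cox4i2) was lost (0 called) with no filter, with only the 2 groups compared, at a threshold of 0.01 and with the replicate block; the F test gave 1 with no filter and 1 at 0.01. A threshold of 0.10 gave 4 in T1R1. Of these, the fits without scaling, and those that combine a scaling with leaving out control 1, were chosen after seeing the data; the cause of each change was not tested. The replicate block changed no other count of called members. The numbers name no shared litter or day, 9 of 24 same-numbered pairs had deviations correlated above 0.1 (-0.323 to 0.39), and 5 of 16 arrays correlated best with their own number. Of 2343 values of named members that kept their side of the threshold, 205 changed sign, each short of it. The scanner flagged 0 spots of members as saturated. That flag does not measure a compression of bright signals, which was not tested. The 4 hearts a group limit what can be seen, with SEs of 0.09 to 0.23.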
